A study of Homo sapiens with 40 samples.

Results

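The 36 genes described here are members and products of the NF-kB pathway, the central switch of inflammatory gene expression. They were taken from the deposited table as the rows whose Ensembl IDs map to a list of names, and all 36 were among the 62263 genes of the table. They comprise 15 chemokines and cytokines, 5 subunits, 7 inhibitors and regulators, 5 receptors, adaptors and kinase subunits, and 4 further targets.

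NF-kB is a family of transcription factors that wait in the cytoplasm, bound by inhibitors of the IkB family. When a receptor for a cytokine or a microbial product is engaged, the IkB kinase complex marks the inhibitors for destruction and the factors move to the nucleus. There they switch on chemokines, cytokines and adhesion molecules, and also their own inhibitors, which later end the response. In the bronchial epithelium these products call neutrophils, monocytes and lymphocytes into the airway wall.

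The cells were BEAS-2B, an immortalised human bronchial epithelial line, in which stable expression of a short hairpin RNA, either a control or one aimed at the RNA-binding protein IGF2BP3, gave the lines compared. Each hairpin is represented by 1 line, and an effect of the hairpin cannot be told apart from other differences between the lines. The column names of the table speak of siRNA where the protocol speaks of hairpins. Both lines were kept overnight in 2% serum, and then either received IL-13, the cytokine of type 2 airway inflammation, at 100 ng/ml or did not, with harvest at 24 h. Total RNA (input) and RNA bound to polyribosomes (polysome) were sequenced, which gave 8 groups of 5 libraries. The labels do not say that replicates came from separate cultures, so p-values measure the spread between these libraries. Levels are CPM, which are counts scaled to the effective size of each library, and within each group they are given in the order of the replicate numbers.

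Total estimated counts ran from 14044352 to 40441061 in the 20 input libraries and from 1816848 to 34082191 in the 20 polysome libraries, of which 3, all from the knockdown line, were under 5000000. IGF2BP3 overlapped between the lines in every setting (20.7 to 48.8 CPM against 21.8 to 29.1 CPM in unstimulated input), so the knockdown line is named by its label only. Of the epithelial keratins, KRT18 lay between 381 and 1084 CPM in the 40 libraries, whereas EPCAM, CDH1 and KRT5, defining markers of many epithelia, reached at most 2.17, 4.18 and 0.729 CPM. Of the leukocyte markers, MS4A1 was listed at 0 in all 40 libraries, and PTPRC, CSF1R and CD3E were at 0 in 39 each. ITGAM and LYZ reached at most 0.270 and 0.730 CPM. CD14 (3.48 to 38.1 CPM) and CD68 (4.67 to 38.1 CPM) had counts in every library.

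One replicate number dominated these genes. In the libraries labelled unstimulated control replicate 1, input and polysome alike, chemokines and cytokines that were near 0 elsewhere were abundant. These libraries are called replicate 1 below. Of the 30 genes that passed the filter on low counts, 26 were highest in replicate 1 among the 20 input libraries, where 14.6% of all tested genes were. In polysome 26 of 30 were highest there, beside 12.4% of all tested genes. Replicate 1 stood more than 2-fold above the next library (on CPM + 1) for 19 of the 30 genes in input and 17 in polysome, beside 1.28% and 1.14% of all genes. It stood more than 4-fold above the next for 14 genes in each fraction, beside 0.370% and 0.365%. Among the other 38 libraries, none was highest of its fraction for more than 1 of the 30 genes, or more than 2-fold above the next for any. The labels do not say that the input and polysome libraries of a number come from the same culture. Because this pattern was known when the genes were chosen, these counts are a description and carry no test. The 6 genes that did not pass the filter were CXCL3, CXCL5, CCL20, CSF2, TNFRSF9 and PTGS2.

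**Figure D1:**
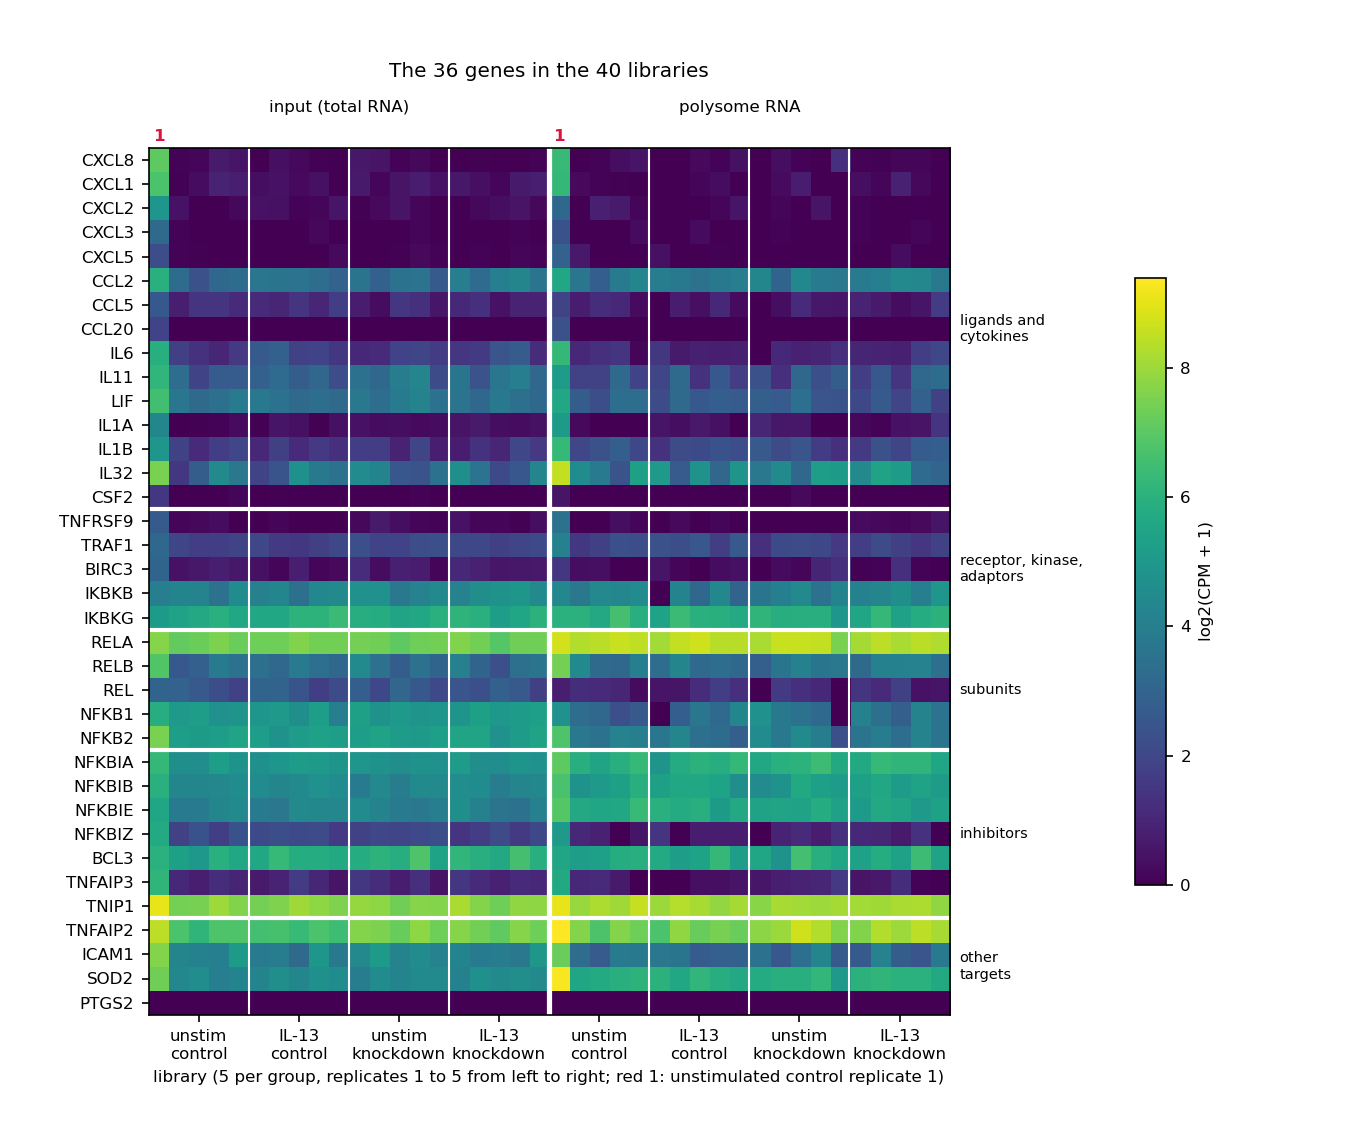
Levels of the 36 genes, as log2(CPM + 1), with genes in rows by role and the 40 libraries in columns, 5 for each of the 8 groups. The columns marked with a red 1, unstimulated control replicate 1 in input and in polysome, are brighter than their neighbours for most chemokines, cytokines and inhibitors, and PTGS2 is at 0 throughout.

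Many genes of this response carry a short DNA element that NF-kB dimers bind. Promoter windows of 250 bases before to 50 bases after a start were given in RefSeq (GRCh38.p14) for 30 of the 36 genes. Some genes had several windows, and a match in any of them was counted. They were searched on both strands for the general kappa-B consensus and for the 9-letter palindromic form GGAANTTCC, and matches to the pair can overlap. Either form was found in 20 of the 30 genes (66.7%) and in 3769 of 27305 genes of the same table (13.8%). Counted by window, it was found in 22 of 47 windows of these genes (46.8%) and in 4127 of all 35116 windows (11.8%). A 10-letter form that fixed more of its letters was searched first and was replaced after its matches had been seen. It or the 9-letter form was found in 19 of the 30 genes (63.3%) and in 899 of all genes (3.29%). The 9-letter form by itself was found in 12 of the 30 (40%) and in 317 of all genes (1.16%). The genes were listed as members or known targets of the pathway, so these shares describe the list. Of the 20 genes with a match, 18 were highest in replicate 1 in both fractions, and of the 10 without a match, 8 were. One window is shown for each of 9 chemokines, cytokines, adhesion molecules and inhibitors that the values below turn on, 5′ to 3′ on the strand of the gene, with all letters matched by the consensus or the 9-letter form in capitals.
CXCL8: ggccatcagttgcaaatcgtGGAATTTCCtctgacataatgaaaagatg
CXCL1: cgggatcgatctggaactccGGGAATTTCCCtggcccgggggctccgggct
CXCL2: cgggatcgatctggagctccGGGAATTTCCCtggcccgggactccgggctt
CXCL3: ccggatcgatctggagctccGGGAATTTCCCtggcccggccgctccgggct
IL6: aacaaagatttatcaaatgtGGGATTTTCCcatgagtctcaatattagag
ICAM1: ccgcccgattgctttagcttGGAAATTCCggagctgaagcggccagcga
NFKBIA: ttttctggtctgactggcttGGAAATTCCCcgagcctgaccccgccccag
NFKBIZ: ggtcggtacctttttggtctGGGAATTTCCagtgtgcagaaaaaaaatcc
TNFAIP3: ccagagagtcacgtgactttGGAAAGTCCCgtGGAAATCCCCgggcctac
These windows are chr4:73740458-73740506 (forward strand) for CXCL8, chr4:73869294-73869344 (forward strand) for CXCL1, chr4:74099243-74099293 (reverse strand) for CXCL2, chr4:74038738-74038788 (reverse strand) for CXCL3, chr7:22727107-22727156 (forward strand) for IL6, chr19:10270914-10270962 (forward strand) for ICAM1, chr14:35404801-35404850 (reverse strand) for NFKBIA, chr3:101827747-101827796 (forward strand) for NFKBIZ and chr6:137867172-137867221 (forward strand) for TNFAIP3, and the matches start at positions -91, -79, -78, -79, -73, -186, -81, -223 and -67 relative to the annotated start, in the same order, with a second match of TNFAIP3 at -55. A match is a run of letters and says nothing of binding in these cells. IL1A, IL1B, IL11 and SOD2 had neither form in any window given for them.

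The neutrophil-attracting chemokines showed some of the widest gaps. CXCL8 (ENSG00000169429.12), the main neutrophil chemoattractant of the airway, measured in input 132 CPM in replicate 1, 0.0598, 0.0796, 0.582 and 0.448 CPM in the other unstimulated control libraries and 0, 0.321, 0.142, 0.0506 and 0 CPM in control libraries with IL-13. CXCL8 in the knockdown line was at 0.522, 0.416, 0.0660, 0.162 and 0 CPM unstimulated and at 0, 0.0392, 0, 0 and 0.0713 CPM with IL-13. Replicate 1 was thus 227-fold above the next input library, whose value rested on 20 counts. On polysomes CXCL8 measured 78.9 CPM in replicate 1, 0, 0.0524, 0.270 and 0.446 CPM in the other unstimulated control libraries and 0, 0, 0.167, 0.0588 and 0.326 CPM in control libraries with IL-13. CXCL8 on knockdown polysomes was at 0, 0.281, 0.0571, 0 and 1.47 CPM unstimulated and at 0.0751, 0.0396, 0.114, 0.0966 and 0 CPM with IL-13. The 1.47 CPM among these came from 3 counts in the library of lowest depth, and in the 38 libraries apart from replicate 1 CXCL8 had no counts in 12.

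CXCL1 (ENSG00000163739.5) and CXCL2 (ENSG00000081041.9) act on the same receptors of neutrophils. In input CXCL1 measured 105 CPM in replicate 1, 0.0299, 0.239, 0.902 and 0.733 CPM in the other unstimulated control libraries and 0.261, 0.385, 0.178, 0.355 and 0 CPM in control libraries with IL-13. CXCL1 in the knockdown line was at 0.617, 0.0925, 0.396, 0.648 and 0.364 CPM unstimulated and at 0.539, 0.314, 0.100, 0.617 and 0.713 CPM with IL-13. Its replicate 1 library lay 117-fold above the next. On polysomes CXCL1 measured 76.4 CPM in replicate 1, 0.182, 0.0524, 0.0451 and 0 CPM in the other unstimulated control libraries and 0, 0, 0.134, 0.235 and 0 CPM in control libraries with IL-13. CXCL1 on knockdown polysomes was at 0, 0.224, 0.628, 0 and 0 CPM unstimulated and at 0.263, 0.119, 0.823, 0.161 and 0 CPM with IL-13. The gap was again between replicate 1 and all others. In input CXCL2 measured 29.9 CPM in replicate 1, 0.359, 0, 0 and 0.163 CPM in the other unstimulated control libraries and 0.392, 0.353, 0.0712, 0.127 and 0.438 CPM in control libraries with IL-13. CXCL2 in the knockdown line was at 0.0474, 0.185, 0.396, 0.108 and 0 CPM unstimulated and at 0, 0.157, 0.267, 0.392 and 0.143 CPM with IL-13. Here replicate 1 was 68.2-fold above the next library, which had 10 counts. On polysomes CXCL2 measured 7.93 CPM in replicate 1, 0, 0.786, 0.586 and 0.111 CPM in the other unstimulated control libraries and 0, 0, 0, 0.118 and 0.434 CPM in control libraries with IL-13. CXCL2 on knockdown polysomes was at 0, 0.112, 0, 0.422 and 0 CPM unstimulated and at 0.0751, 0, 0, 0 and 0 CPM with IL-13. CXCL3 (ENSG00000163734.4) did not pass the filter, with 8.50 CPM in input and 4.18 CPM in polysome of replicate 1 and at most 0.152 CPM and 0.223 CPM elsewhere. CXCL1, CXCL2 and CXCL3 are close paralogs, as the windows above show, and estimated counts can be split between them. CXCL5, a further member of the group, had 3.71 CPM and 6.68 CPM in replicate 1 and at most 0.189 CPM and 0.546 CPM elsewhere.

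Chemokines for other leukocytes differed in how much was present at baseline. CCL20 (ENSG00000115009.13), which attracts dendritic cells and lymphocytes, had 2.71 CPM (76 counts) in input and 4.07 CPM (39 counts) in polysome of replicate 1. No other library of the 40 had a count of it. CCL2 (ENSG00000108691.10), the monocyte chemoattractant, was present throughout, and in input it measured 61.1 CPM in replicate 1, 9.09, 4.09, 8.09 and 8.88 CPM in the other unstimulated control libraries and 12.0, 11.2, 11.0, 9.24 and 6.75 CPM in control libraries with IL-13. CCL2 in the knockdown line was at 11.1, 6.29, 10.3, 11.1 and 5.33 CPM unstimulated and at 15.3, 8.87, 15.5, 18.6 and 11.1 CPM with IL-13. Replicate 1 was 3.28-fold above the next input library, while the other groups overlapped. On polysomes CCL2 measured 49.2 CPM in replicate 1, 11.8, 5.98, 14.2 and 19.1 CPM in the other unstimulated control libraries and 14.4, 12.9, 10.6, 13.0 and 15.3 CPM in control libraries with IL-13. CCL2 on knockdown polysomes was at 18.7, 7.24, 20.0, 13.7 and 12.7 CPM unstimulated and at 13.3, 15.5, 20.2, 19.4 and 13.0 CPM with IL-13. Replicate 1 was again highest, and the other groups overlapped. CCL5, a chemokine for T cells, was at 4.96 CPM and 2.82 CPM in replicate 1 and between 0.231 and 2.37 CPM in the other 19 input libraries.

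Among the cytokines, IL6 (ENSG00000136244.12), the inducer of the acute phase response, measured in input 59.7 CPM in replicate 1, 2.45, 1.51, 0.989 and 1.95 CPM in the other unstimulated control libraries and 5.31, 6.33, 2.60, 2.73 and 1.84 CPM in control libraries with IL-13. IL6 in the knockdown line was at 1.04, 1.16, 2.71, 2.95 and 2.18 CPM unstimulated and at 1.83, 2.00, 4.51, 5.72 and 1.28 CPM with IL-13. Replicate 1 was 9.44-fold above the next input library. On polysomes IL6 measured 75.7 CPM in replicate 1, 1.09, 1.42, 1.67 and 0.111 CPM in the other unstimulated control libraries and 1.84, 0.617, 0.768, 0.735 and 0.760 CPM in control libraries with IL-13. IL6 on knockdown polysomes was at 0, 1.07, 0.799, 0.938 and 1.47 CPM unstimulated and at 0.939, 0.910, 0.767, 2.38 and 3.03 CPM with IL-13. Per transcript length, on the TPM scale of the table, IL6 had a median of 3.02 TPM over the other 19 input libraries and 87.8 TPM in replicate 1. IL11 (ENSG00000095752.7) and LIF (ENSG00000128342.5), cytokines that signal through the same shared receptor chain as IL6, were present at baseline. In input IL11 measured 71.3 CPM in replicate 1, 9.18, 2.76, 5.67 and 5.54 CPM in the other unstimulated control libraries and 6.36, 8.86, 5.77, 7.65 and 3.68 CPM in control libraries with IL-13. IL11 in the knockdown line was at 10.3, 7.96, 14.8, 18.2 and 3.39 CPM unstimulated and at 11.5, 4.24, 11.8, 15.1 and 8.13 CPM with IL-13. It was 3.92-fold above the next library in replicate 1. On polysomes IL11 measured 35.3 CPM in replicate 1, 2.64, 2.62, 8.39 and 2.68 CPM in the other unstimulated control libraries and 2.93, 8.46, 1.50, 4.97 and 2.28 CPM in control libraries with IL-13. IL11 on knockdown polysomes was at 3.99, 1.40, 7.82, 3.85 and 5.87 CPM unstimulated and at 2.29, 4.98, 1.65, 7.69 and 9.10 CPM with IL-13. LIF was the steadier of the pair outside replicate 1, and its other 19 input libraries spanned 2.29-fold, against 6.59-fold for IL11. In input LIF measured 93.5 CPM in replicate 1, 11.9, 8.39, 9.95 and 14.0 CPM in the other unstimulated control libraries and 13.0, 10.7, 8.54, 9.52 and 8.41 CPM in control libraries with IL-13. LIF in the knockdown line was at 12.7, 9.25, 13.2, 17.6 and 10.5 CPM unstimulated and at 11.0, 7.97, 13.1, 9.98 and 7.70 CPM with IL-13. Replicate 1 was 5.31-fold above the next. On polysomes LIF measured 47.9 CPM in replicate 1, 5.91, 3.83, 9.47 and 9.25 CPM in the other unstimulated control libraries and 3.58, 8.50, 5.04, 5.94 and 5.54 CPM in control libraries with IL-13. LIF on knockdown polysomes was at 6.23, 5.50, 9.76, 4.50 and 4.40 CPM unstimulated and at 3.08, 5.30, 2.90, 6.31 and 2.60 CPM with IL-13. Both cytokines were lower in polysome than in input in replicate 1.

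The IL-1 genes encode alarm cytokines of damaged epithelium. IL1A (ENSG00000115008.6) was close to absent outside replicate 1, and in input it measured 18.6 CPM in replicate 1, 0, 0.0265, 0.0582 and 0.204 CPM in the other unstimulated control libraries and 0.0435, 0.450, 0.356, 0.0506 and 0.351 CPM in control libraries with IL-13. IL1A in the knockdown line was at 0.379, 0.231, 0.264, 0.189 and 0.242 CPM unstimulated and at 0.415, 0.589, 0.267, 0.252 and 0.357 CPM with IL-13. The next library after replicate 1 had 15 counts. On polysomes IL1A measured 33.4 CPM in replicate 1, 0.182, 0, 0 and 0 CPM in the other unstimulated control libraries and 0.433, 0.264, 0.568, 0.353 and 0 CPM in control libraries with IL-13. IL1A on knockdown polysomes was at 0.998, 0.505, 0.514, 0 and 0 CPM unstimulated and at 0.150, 0.0791, 0.369, 0.418 and 1.73 CPM with IL-13. IL1B (ENSG00000125538.12), by contrast, had counts in every library. In input IL1B measured 29.9 CPM in replicate 1, 2.60, 1.19, 2.30 and 2.97 CPM in the other unstimulated control libraries and 1.13, 2.44, 1.17, 2.03 and 1.45 CPM in control libraries with IL-13. IL1B in the knockdown line was at 2.28, 2.27, 0.891, 2.92 and 0.727 CPM unstimulated and at 0.664, 1.61, 1.00, 3.03 and 1.93 CPM with IL-13. Replicate 1 was 9.87-fold above the next. On polysomes IL1B measured 77.1 CPM in replicate 1, 3.00, 3.98, 6.18 and 3.01 CPM in the other unstimulated control libraries and 1.52, 3.52, 3.27, 4.18 and 3.80 CPM in control libraries with IL-13. IL1B on knockdown polysomes was at 5.24, 3.59, 4.51, 2.11 and 1.47 CPM unstimulated and at 1.99, 4.07, 2.92, 5.63 and 6.07 CPM with IL-13. For both genes replicate 1 was higher in polysome (33.4 and 77.1 CPM) than in input (18.6 and 29.9 CPM), whereas the chemokine CXCL2 went the other way (7.93 against 29.9 CPM).

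IL32 (ENSG00000008517.19), a proinflammatory cytokine of epithelial and lymphoid cells, varied widely at baseline. In input IL32 measured 182 CPM in replicate 1, 1.88, 5.87, 21.1 and 12.1 CPM in the other unstimulated control libraries and 2.79, 4.40, 25.3, 12.9 and 10.4 CPM in control libraries with IL-13. IL32 in the knockdown line was at 22.4, 17.7, 4.82, 4.32 and 10.2 CPM unstimulated and at 24.9, 10.8, 3.21, 4.79 and 18.5 CPM with IL-13. Its 19 libraries apart from replicate 1 spanned 13.4-fold with no group apart, and replicate 1 lay 7.21-fold above the highest of them. On polysomes IL32 measured 367 CPM in replicate 1, 22.5, 13.4, 4.28 and 39.5 CPM in the other unstimulated control libraries and 32.1, 5.55, 27.4, 7.68 and 27.9 CPM in control libraries with IL-13. IL32 on knockdown polysomes was at 12.5, 21.4, 7.77, 36.5 and 33.7 CPM unstimulated and at 20.2, 41.5, 34.8, 8.79 and 7.37 CPM with IL-13. CSF2, the granulocyte and macrophage growth factor, was all but unmeasured, with 52 counts (1.86 CPM) in the input library of replicate 1 and 4 counts in its polysome library.

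**Figure D2:**
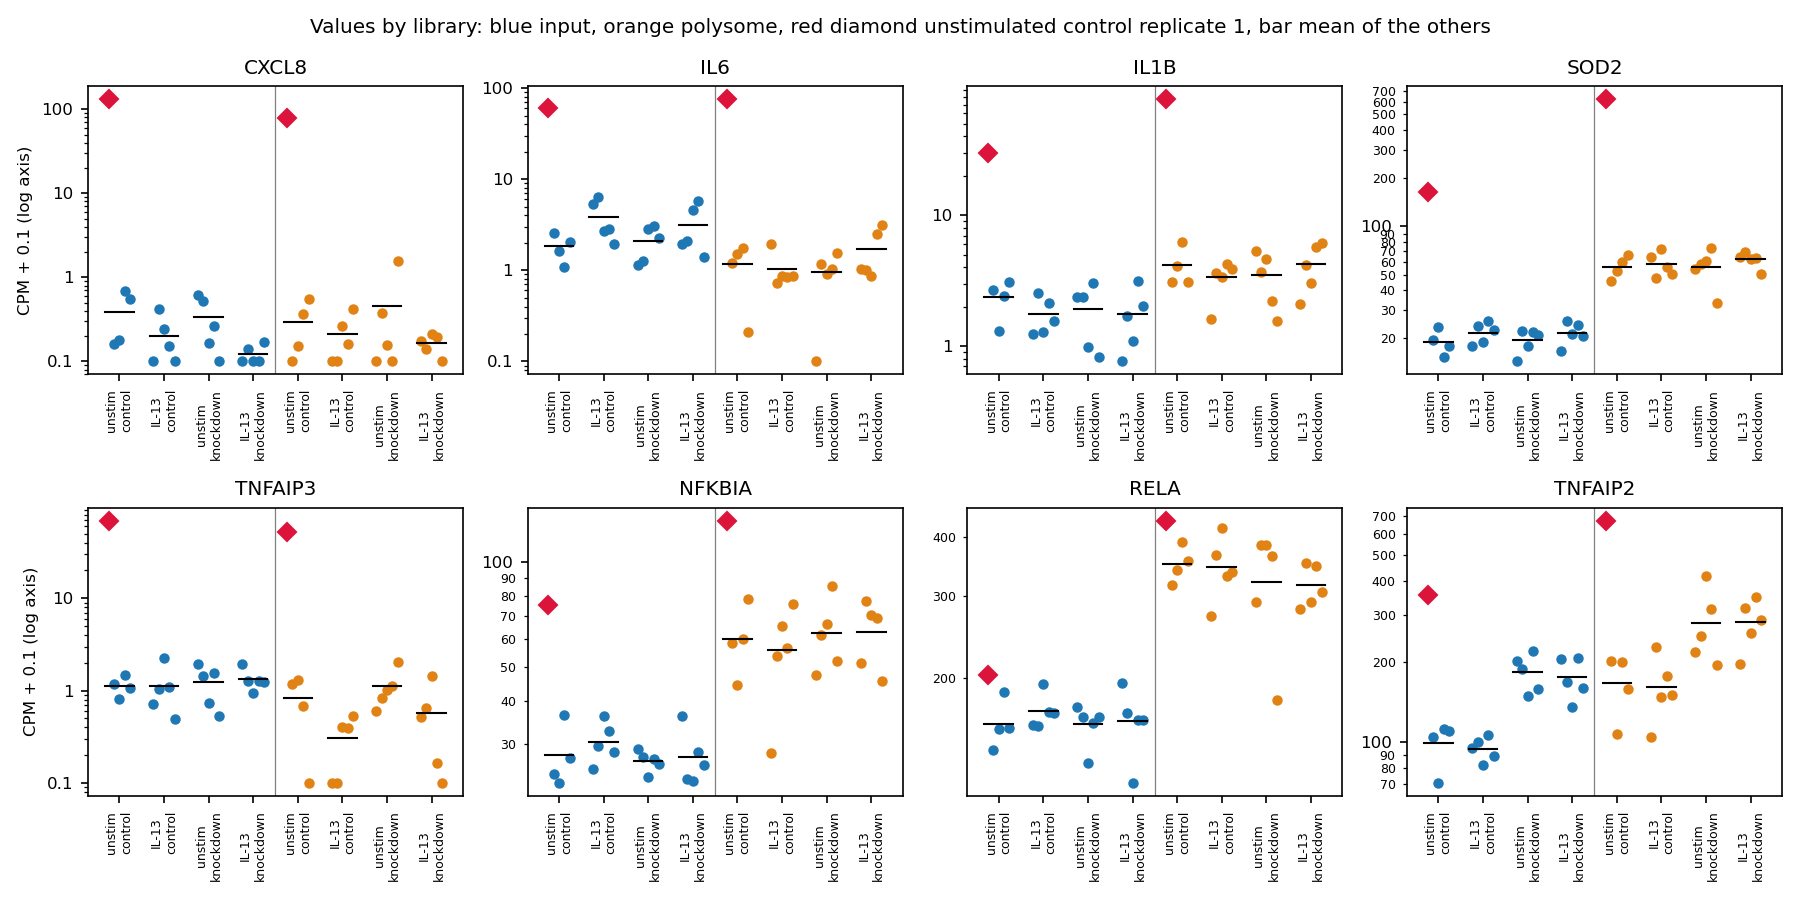
CPM + 0.1 of 8 genes (log axis) in each library, with input in blue, polysome in orange, unstimulated control replicate 1 as red diamonds and the mean of the remaining libraries of each group as a bar. The diamonds lie above all other points of their fraction in each panel, by the least for RELA (203 against at most 195 CPM in input), and TNFAIP2 is the panel in which, apart from the diamond, the knockdown groups lie higher in input.

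The inhibitors that NF-kB itself induces were higher in the same libraries, to different degrees. NFKBIA (ENSG00000100906.12), the fast-resynthesised IkB alpha, was expressed throughout, and in input it measured 75.4 CPM in replicate 1, 24.5, 23.1, 36.4 and 27.3 CPM in the other unstimulated control libraries and 25.4, 29.5, 36.0, 32.6 and 28.4 CPM in control libraries with IL-13. NFKBIA in the knockdown line was at 28.9, 27.4, 24.0, 27.1 and 26.2 CPM unstimulated and at 36.0, 23.8, 23.4, 28.4 and 26.1 CPM with IL-13. Replicate 1 was 2.07-fold above the next input library. On polysomes NFKBIA measured 131 CPM in replicate 1, 58.5, 44.3, 59.9 and 78.3 CPM in the other unstimulated control libraries and 28.3, 53.6, 65.3, 56.6 and 75.7 CPM in control libraries with IL-13. NFKBIA on knockdown polysomes was at 47.4, 61.6, 66.5, 85.1 and 51.8 CPM unstimulated and at 51.4, 77.5, 70.4, 69.1 and 45.5 CPM with IL-13. NFKBIZ (ENSG00000144802.11) encodes a nuclear IkB protein needed for a set of secondary targets such as IL6. In input NFKBIZ measured 52.7 CPM in replicate 1, 2.57, 4.22, 2.39 and 4.11 CPM in the other unstimulated control libraries and 3.26, 3.82, 3.27, 3.55 and 2.02 CPM in control libraries with IL-13. NFKBIZ in the knockdown line was at 2.61, 3.01, 2.87, 3.24 and 3.76 CPM unstimulated and at 1.74, 2.24, 3.41, 1.99 and 3.14 CPM with IL-13. It was 12.5-fold above the next library in replicate 1. On polysomes NFKBIZ measured 32.3 CPM in replicate 1, 1.09, 0.839, 0 and 0.446 CPM in the other unstimulated control libraries and 1.73, 0, 0.634, 0.677 and 0.652 CPM in control libraries with IL-13. NFKBIZ on knockdown polysomes was at 0, 0.842, 1.26, 0.704 and 1.47 CPM unstimulated and at 1.09, 1.03, 0.596, 1.54 and 0 CPM with IL-13. TNFAIP3 (ENSG00000118503.17) is a ubiquitin-editing enzyme that shuts off signalling to the kinase. In input TNFAIP3 measured 69.3 CPM in replicate 1, 1.08, 0.717, 1.37 and 0.977 CPM in the other unstimulated control libraries and 0.609, 0.931, 2.14, 0.988 and 0.394 CPM in control libraries with IL-13. TNFAIP3 in the knockdown line was at 1.85, 1.34, 0.627, 1.43 and 0.424 CPM unstimulated and at 1.83, 1.18, 0.836, 1.18 and 1.14 CPM with IL-13. Replicate 1 was 32.5-fold above the next, so across NFKBIA, NFKBIZ and TNFAIP3 the gap was wider where the baseline was lower. This order did not hold for all inhibitors. NFKBIE had a lower median than NFKBIA in the other input libraries (16.3 against 27.3 CPM) but a narrower gap (1.85-fold against 2.07-fold). On polysomes TNFAIP3 measured 51.8 CPM in replicate 1, 1.09, 1.21, 0.586 and 0 CPM in the other unstimulated control libraries and 0, 0, 0.300, 0.294 and 0.434 CPM in control libraries with IL-13. TNFAIP3 on knockdown polysomes was at 0.499, 0.730, 0.914, 1.03 and 1.96 CPM unstimulated and at 0.413, 0.554, 1.33, 0.0644 and 0 CPM with IL-13.

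NFKBIB and NFKBIE, the other cytoplasmic IkB proteins, were at 61.7 and 45.6 CPM in the input library of replicate 1, against 13.2 to 26.0 and 10.6 to 24.6 CPM in the others. TNIP1, an adaptor of TNFAIP3, was at 527 CPM against 157 to 296 CPM. BCL3, a nuclear IkB protein that works with the p52 and p50 subunits, was not highest there: its 62.8 CPM lay inside the range of the others, 31.5 to 110 CPM.

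The subunits themselves were split. RELA (ENSG00000173039.20), the main activating subunit, measured in input 203 CPM in replicate 1, 141, 155, 187 and 156 CPM in the other unstimulated control libraries and 158, 158, 194, 169 and 168 CPM in control libraries with IL-13. RELA in the knockdown line was at 173, 165, 132, 161 and 165 CPM unstimulated and at 195, 168, 119, 163 and 162 CPM with IL-13. The ratio of replicate 1 to the next input library was 1.04, so RELA stood barely above the rest. On polysomes RELA measured 434 CPM in replicate 1, 316, 340, 391 and 356 CPM in the other unstimulated control libraries and 271, 367, 418, 331 and 338 CPM in control libraries with IL-13. RELA on knockdown polysomes was at 291, 385, 384, 365 and 179 CPM unstimulated and at 281, 353, 291, 346 and 306 CPM with IL-13. NFKB1 (ENSG00000109320.14) encodes the precursor of the p50 subunit. In input NFKB1 measured 56.7 CPM in replicate 1, 33.0, 36.8, 25.7 and 28.4 CPM in the other unstimulated control libraries and 29.3, 32.6, 24.4, 37.4 and 15.1 CPM in control libraries with IL-13. NFKB1 in the knockdown line was at 39.2, 27.4, 32.0, 28.0 and 29.3 CPM unstimulated and at 28.3, 39.3, 31.3, 34.6 and 38.6 CPM with IL-13. Its ratio of replicate 1 to the next was 1.44. On polysomes NFKB1 measured 25.9 CPM in replicate 1, 9.37, 8.02, 3.92 and 5.24 CPM in the other unstimulated control libraries and 0, 5.99, 12.0, 8.18 and 18.7 CPM in control libraries with IL-13. NFKB1 on knockdown polysomes was at 25.7, 13.0, 10.5, 8.30 and 0 CPM unstimulated and at 16.3, 10.0, 6.22, 17.5 and 10.8 CPM with IL-13. NFKB2 and RELB, the pair of the slower non-canonical arm and targets of NF-kB themselves, were at 180 and 113 CPM in input of replicate 1 against at most 43.4 and 20.9 CPM elsewhere. REL was not highest there, with 7.21 CPM against up to 7.49 CPM.

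Signalling components were also split. BIRC3 (ENSG00000023445.16), an induced ubiquitin ligase of the tumour necrosis factor receptor complex, measured in input 7.14 CPM in replicate 1, 0.359, 0.531, 0.727 and 0.529 CPM in the other unstimulated control libraries and 0.348, 0.128, 0.747, 0.101 and 0.175 CPM in control libraries with IL-13. BIRC3 in the knockdown line was at 1.28, 0.231, 0.792, 0.648 and 0.121 CPM unstimulated and at 1.12, 0.824, 0.501, 0.533 and 0.571 CPM with IL-13. Replicate 1 was 5.58-fold above the next input library. On polysomes BIRC3 measured 1.88 CPM in replicate 1, 0.273, 0.315, 0 and 0 CPM in the other unstimulated control libraries and 0.433, 0.0881, 0, 0.235 and 0.326 CPM in control libraries with IL-13. BIRC3 on knockdown polysomes was at 0, 0.224, 0.114, 0.985 and 1.47 CPM unstimulated and at 0.0375, 0.0791, 1.39, 0.0644 and 0 CPM with IL-13. The 1.39 CPM of IL-13 knockdown replicate 3 (49 counts) stood apart from its group. TRAF1, an adaptor of the same receptors, was at 8.03 CPM in input of replicate 1 against 1.89 to 3.94 CPM. TNFRSF9, a costimulatory receptor of that family, was at 5.39 CPM against at most 0.601 CPM. The kinase subunits were not higher there. IKBKB was at 15.0 CPM in replicate 1, inside the range of the others (10.2 to 30.6 CPM), and IKBKG was at 33.4 CPM, below all other 19 input libraries (37.7 to 83.2 CPM). IKBKG has a near-identical pseudogene copy, so its counts are uncertain.

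Of the remaining targets, ICAM1 (ENSG00000090339.9), the adhesion molecule that holds leukocytes on epithelium, measured in input 199 CPM in replicate 1, 18.5, 16.6, 15.8 and 33.6 CPM in the other unstimulated control libraries and 14.2, 14.9, 8.54, 30.3 and 12.8 CPM in control libraries with IL-13. ICAM1 in the knockdown line was at 20.3, 33.9, 17.2, 22.2 and 16.9 CPM unstimulated and at 17.7, 13.9, 14.2, 12.7 and 30.2 CPM with IL-13. Replicate 1 was 5.86-fold above the next. On polysomes ICAM1 measured 151 CPM in replicate 1, 9.37, 5.45, 13.2 and 12.8 CPM in the other unstimulated control libraries and 12.4, 11.7, 5.61, 6.41 and 6.52 CPM in control libraries with IL-13. ICAM1 on knockdown polysomes was at 10.5, 4.83, 9.82, 18.2 and 5.38 CPM unstimulated and at 5.33, 16.9, 5.79, 4.60 and 13.9 CPM with IL-13. SOD2 (ENSG00000291237.1) is the mitochondrial superoxide dismutase that NF-kB induces as an antioxidant defence. In input SOD2 measured 164 CPM in replicate 1, 19.5, 23.5, 15.2 and 17.9 CPM in the other unstimulated control libraries and 17.7, 23.7, 18.9, 25.5 and 22.5 CPM in control libraries with IL-13. SOD2 in the knockdown line was at 14.3, 22.0, 17.9, 21.7 and 21.0 CPM unstimulated and at 16.7, 25.4, 21.3, 24.3 and 20.5 CPM with IL-13. Outside replicate 1 it spanned 1.79-fold over 19 input libraries, and replicate 1 lay 6.41-fold above the highest of them. On polysomes SOD2 measured 623 CPM in replicate 1, 45.3, 52.6, 59.7 and 66.4 CPM in the other unstimulated control libraries and 64.6, 47.6, 72.3, 56.1 and 50.1 CPM in control libraries with IL-13. SOD2 on knockdown polysomes was at 54.1, 58.3, 60.4, 73.2 and 33.2 CPM unstimulated and at 64.2, 69.1, 62.4, 63.8 and 50.7 CPM with IL-13. PTGS2 (ENSG00000073756.13), the inducible cyclooxygenase, was listed at 0 in all 40 libraries.

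Per transcript length and outside replicate 1, the order of the genes in input was led by regulators, not by cytokines. TNIP1 had a median of 91.5 TPM over the 19 libraries (69.0 to 122 TPM) and RELA 78.0 TPM (65.5 to 88.4 TPM), and these neighbours overlapped. TNFAIP2, BCL3 and IKBKG followed at medians of 38.9, 36.8 and 35.6 TPM with overlapping ranges. SOD2, NFKBIA and NFKBIB had 24.9, 22.7 and 22.1 TPM. The highest cytokines were CCL2 (20.0 TPM) and IL32 (16.5 TPM), and CXCL8 had 0.0546 TPM. In replicate 1 IL32 was the highest of the genes (292 TPM). SOD2 (221 TPM), CXCL1 (124 TPM), CCL2 (120 TPM) and CXCL8 (109 TPM) also passed RELA (104 TPM) there.

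Other genes moved with the same libraries. All 18 immediate early and stress genes of a list (such as FOS, JUN and ATF3) were highest in replicate 1 in both fractions. Their summed level was 6591 CPM in input against 410 to 982 CPM in the other 19 libraries, and 6768 CPM in polysome against 391 to 1094 CPM. Of 45 other NF-kB targets, 32 were highest in replicate 1 in input and 28 in polysome, although only 24 of the 45 passed the filter. Receptors and signalling proteins upstream of the kinase, of which 37 passed the filter, were highest there for 15 and 11 of 38. Of all tested genes, 14.6% in input and 12.4% in polysome were highest in replicate 1. Among 8 leukocyte markers, PTPRC, CSF1R, CD3E and MS4A1 were at 0 in both libraries of replicate 1, and 1 of the 8 was highest there in each fraction. The summed level of the 8 in replicate 1 was 46.9 CPM in input, where the other libraries held 16.5 to 43.3 CPM, and 59.8 CPM in polysome, where they held 8.15 to 61.5 CPM. CD14 (30.6 and 29.8 CPM) and CD68 (15.8 and 29.5 CPM) made up most of it. The part of these genes in the values above was not tested.

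IL-13 was asked about in each line and fraction. None of the 30 tested genes rose or fell past an adjusted p of 0.05 in edgeR in any of the 4 comparisons with all 40 libraries. DESeq2 called none of the 22 genes it could judge, and it gave no adjusted p for the other 8 in any comparison, NFKB2, IL1A, TNFAIP3, IL6, NFKBIZ, CXCL1, CXCL8 and SOD2. Over all tested genes the share called was 0.0777% (control input), 0.0837% (knockdown input), 0.125% (control polysome) and 0.0956% (knockdown polysome). An unadjusted p under 0.05 was reached by 14, 0, 15 and 0 of the 30 genes, in the same order, beside 2.04%, 1.03%, 5.14% and 3.21% of all genes. All 14 and all 15 of these were lower with IL-13, in the control line, whose unstimulated group holds replicate 1.

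The fitted effects moved with that library. Over the 23 genes of at least 1 CPM (mean of the other 38 libraries), the median log2 fold change with IL-13 in the control line was -0.67 in input and -0.73 in polysome, beside 0.00 over 13078 genes of that level in input. Without the replicate 1 libraries (38 libraries) the medians were 0.09 and -0.04. No gene of the 30 was called then in any of the 4 comparisons, beside 0.0765%, 0.106%, 0.141% and 0.100% of all genes, and 0, 2, 2 and 0 reached an unadjusted p under 0.05, beside 1.57%, 1.25%, 4.39% and 3.74%. SOD2 shows the change. Its log2 fold change with IL-13 in control input was -1.14 ± 0.53 (SE) with 40 libraries and 0.19 ± 0.19 with 38, and edgeR gave each an adjusted p of 1. In polysome it was -1.54 ± 0.54 with 40 libraries (adjusted p = 0.53 in edgeR) and 0.05 ± 0.18 with 38. IL6 was -1.82 ± 0.98 in control input with 40 libraries and 1.12 ± 0.56 with 38, where the IL-13 libraries (1.84 to 6.33 CPM) overlapped the remaining unstimulated ones (0.989 to 2.45 CPM). In the knockdown line the medians with IL-13 were 0.03 in input and 0.07 in polysome.

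Differences between the lines were read in the same way, since the knockdown comparison without stimulation uses the same unstimulated control libraries. None of the 30 genes was called in the 4 comparisons with 40 libraries in edgeR, and none of the 22 with an adjusted p was in DESeq2. Of all genes 0.0120%, 0%, 0.0299% and 0.0896% were called in unstimulated input, IL-13 input, unstimulated polysome and IL-13 polysome. An unadjusted p under 0.05 was reached by 15, 1, 16 and 2 of the 30, beside 2.97%, 3.00%, 7.42% and 9.92% of all genes. The 15 and the 16 are from the unstimulated comparisons, which hold replicate 1. With 38 libraries no member was called either, beside 0.0412%, 0.0471%, 0.0412% and 0.165% of all genes, and 1, 1, 2 and 3 reached an unadjusted p under 0.05, beside 2.27%, 3.57%, 8.59% and 11.1%. Over the 23 genes the medians in unstimulated cells were -0.63 in input and -0.61 in polysome with 40 libraries, and 0.09 and -0.03 without replicate 1. With IL-13 they were 0.00 and 0.17. For SOD2 the knockdown effect in unstimulated input was -1.31 ± 0.54 (SE) with 40 libraries and 0.03 ± 0.19 with 38, and in polysome -1.59 ± 0.54 and 0.01 ± 0.19. For IL6 it was -2.72 ± 1.01 and 0.22 ± 0.56 in input, and -4.22 ± 1.16 and -0.38 ± 0.61 in polysome.

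**Figure D3:**
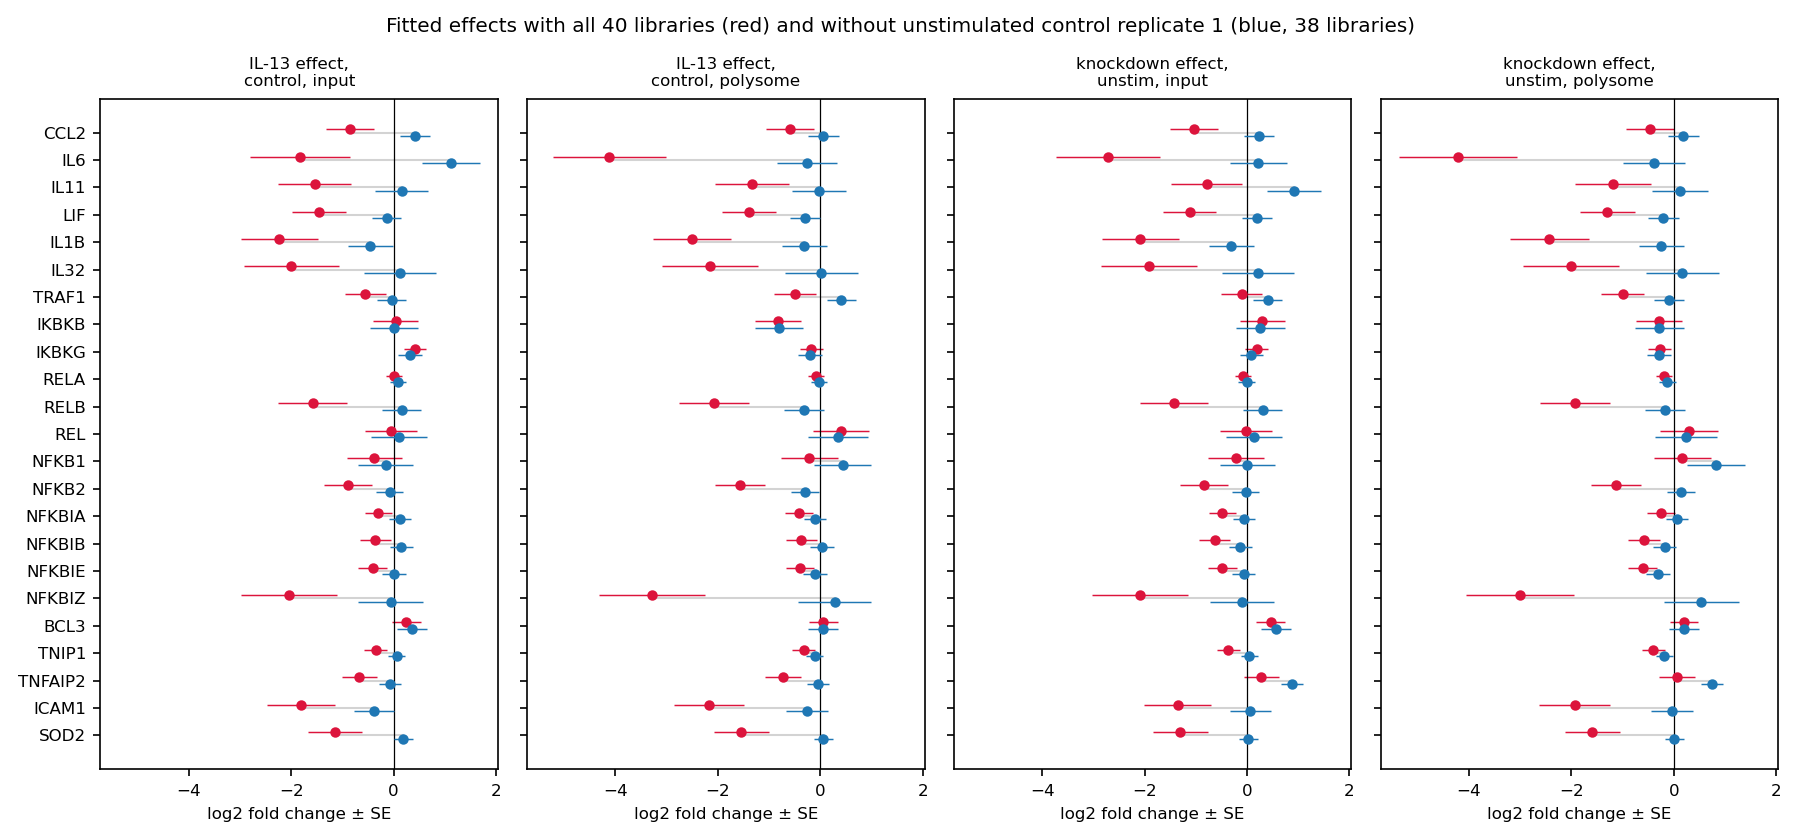
Log2 fold change ± SE of the 23 genes of at least 1 CPM in the 4 comparisons that use the unstimulated control libraries, with all 40 libraries (red) and without unstimulated control replicate 1 (blue). With IL-13 in control input the median of the red points is -0.67 and that of the blue points 0.09, with SOD2 at -1.14 and 0.19 and IL6 at -1.82 and 1.12, while TNFAIP2 lies above 0 in blue in both knockdown panels.

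TNFAIP2 (ENSG00000185215.11), a target of NF-kB that takes part in forming membrane protrusions, was the member in which the lines stood apart in input once replicate 1 was set aside. It was singled out after its values were seen. In input TNFAIP2 measured 354 CPM in replicate 1, 104, 70.5, 112 and 111 CPM in the other unstimulated control libraries and 95.0, 101, 82.4, 106 and 88.9 CPM in control libraries with IL-13. TNFAIP2 in the knockdown line was at 201, 187, 149, 219 and 158 CPM unstimulated and at 205, 168, 135, 207 and 159 CPM with IL-13. The lines did not overlap without replicate 1, in unstimulated cells (70.5 to 112 against 149 to 219 CPM) or with IL-13 (82.4 to 106 against 135 to 207 CPM). No other of the 30 genes had groups apart in these input comparisons, where 2.40% and 1.64% of all genes did. On polysomes TNFAIP2 measured 672 CPM in replicate 1, 200, 107, 200 and 158 CPM in the other unstimulated control libraries and 105, 226, 147, 177 and 150 CPM in control libraries with IL-13. TNFAIP2 on knockdown polysomes was at 217, 250, 417, 316 and 195 CPM unstimulated and at 196, 318, 256, 349 and 286 CPM with IL-13. The polysome groups overlapped. With 38 libraries its log2 fold change in the knockdown line was 0.88 ± 0.22 (SE) in unstimulated input and 0.89 ± 0.21 with IL-13, and the adjusted p in edgeR was 0.280 for the former and 0.0873 for the latter. In polysome it was 0.75 ± 0.22 and 0.80 ± 0.21. TNFAIP2 was thus not called with 38 libraries, nor was it with 40, where unstimulated input gave 0.28 ± 0.34. It was called in edgeR on the 19 input libraries without replicate 1 (adjusted p = 0.0183 and 0.00619 for unstimulated and IL-13 cells). That fit was an alternative chosen after seeing the data.

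Whether the lines differed in their response to IL-13, or whether an effect differed between polysome and input, was tested as an interaction. No member was called in the difference of IL-13 effects, in input or polysome, or in the 4 shifts of an effect from input to polysome, in edgeR or, for the 22 genes with an adjusted p, in DESeq2. Among all genes 0% and 0% were called for the differences with 40 libraries and 0% and 0.00588% with 38. For the shifts of the knockdown effect (unstimulated, IL-13) and of the IL-13 effect (control, knockdown) the shares were 0%, 0.00598%, 0% and 0% with 40 libraries and 0%, 0.00588%, 0% and 0% with 38. An unadjusted p under 0.05 was reached by 5 and 8 of the 30 genes for the differences, beside 0.914% and 3.36% of all genes. It was reached by 0 for each shift, beside 1.69%, 1.79%, 1.95% and 1.31%. The median difference over the 23 genes was 0.61 in input and 0.77 in polysome with 40 libraries, and -0.05 and 0.09 with 38.

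Polysome RNA was compared with input in each line and treatment, a measure of how much of an mRNA is on ribosomes relative to all genes. Unstimulated control cells had 5 members of the 30 higher in polysome, beside 17.4% of all genes, and 2 were lower, beside 22.8%, so that 7 were called, beside 40.2%. In each of the other settings 5 were higher and 3 lower. The shares of all genes called there were 38.5% (16.4% higher, 22.0% lower) in unstimulated knockdown cells, 39.3% (16.7% and 22.6%) in IL-13 control cells and 39.3% (16.0% and 23.3%) in IL-13 knockdown cells. With 40 libraries called members were therefore fewer, as a share of the 30, than called genes were of all genes, which did not hold in every setting with 38. The 5 that were higher in all 4 settings were the inhibitors NFKBIA, NFKBIB and NFKBIE, the subunit RELA and the target SOD2. NFKB1 and REL were lower in all 4, and NFKB2 in 3. These names describe the called genes only. With 40 libraries the number called as higher was near the share of all genes, and the number called as lower was below it.

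These calls differed in how far they rested on single libraries. Over 40 edgeR fits that each left out 1 library, NFKBIA, NFKBIE, RELA and REL were called in every fit and setting, with the highest adjusted p at 0.0339 (NFKBIA in unstimulated control cells). NFKB1 lost its call in unstimulated knockdown cells in 9 fits, without any 1 of the input libraries of that group or of its polysome replicates 2, 3, 4 and 5 (-1.01, 0.147, which are here and below the log2 fold change nearest 0 and the highest adjusted p over the 40 fits). In IL-13 knockdown cells it lost it in 5, without input replicate 2 or 5 or polysome replicate 2, 3 or 5 (-1.32, 0.0818). NFKB2 lost its call in unstimulated knockdown cells in 4 fits, without input replicate 2 or polysome replicate 2, 4 or 5 (-0.95, 0.131). NFKBIB lost its call in unstimulated control cells in 4 fits, without input replicate 2, 3 or 4 or polysome replicate 1 (0.48, 0.187). It also did in 1 fit in unstimulated knockdown cells, without polysome replicate 3 (0.74, 0.0658), and in 2 in IL-13 control cells, without input replicate 2 or polysome replicate 3 (0.79, 0.0534). SOD2 lost its call in 1 fit in unstimulated control cells and in 2 in unstimulated knockdown cells, without input replicate 1 or polysome replicate 4 (1.42, 0.0522). In IL-13 control cells it did in 5, without input replicate 1, 3 or 5 or polysome replicate 1 or 3 (1.33, 0.0671), and in IL-13 knockdown cells in 1, without input replicate 1 (1.44, 0.0522).

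RELA rose in polysome by a log2 fold change of 1.13 ± 0.16 (SE, adjusted p = 3.32e-07 in edgeR) in unstimulated control cells, and by between 0.97 and 1.02 in the other settings. From the values above, its polysome libraries lay above the input libraries of the same line and treatment in every setting. The closest approach was 179 CPM in the polysome library of lowest depth against up to 173 CPM. NFKBIE (ENSG00000146232.17) in input measured 45.6 CPM in replicate 1, 14.1, 13.9, 19.1 and 20.8 CPM in the other unstimulated control libraries and 13.5, 12.1, 20.6, 19.5 and 19.5 CPM in control libraries with IL-13. NFKBIE in the knockdown line was at 22.4, 17.3, 13.4, 12.7 and 15.3 CPM unstimulated and at 24.6, 16.3, 11.2, 10.6 and 16.7 CPM with IL-13. On polysomes NFKBIE measured 119 CPM in replicate 1, 49.6, 46.0, 47.5 and 78.8 CPM in the other unstimulated control libraries and 60.8, 54.6, 58.5, 34.2 and 49.7 CPM in control libraries with IL-13. NFKBIE on knockdown polysomes was at 41.6, 43.7, 41.7, 55.1 and 40.6 CPM unstimulated and at 33.5, 49.3, 43.3, 32.7 and 40.3 CPM with IL-13. The fractions of NFKBIE did not overlap in any line and treatment, with 45.6 against 46.0 CPM the closest in unstimulated control cells. For neither gene was it counted how many of all genes had fractions apart. The log2 fold changes of NFKBIE were 1.59 and 1.46 in unstimulated control and knockdown cells. With IL-13 they were 1.60 in control and 1.33 in knockdown cells.

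NFKBIB (ENSG00000104825.17) in input measured 61.7 CPM in replicate 1, 18.8, 19.1, 19.3 and 22.5 CPM in the other unstimulated control libraries and 22.1, 18.2, 21.7, 26.0 and 22.4 CPM in control libraries with IL-13. NFKBIB in the knockdown line was at 13.2, 20.3, 14.3, 21.8 and 21.6 CPM unstimulated and at 23.3, 22.5, 14.3, 18.3 and 20.0 CPM with IL-13. On polysomes NFKBIB measured 104 CPM in replicate 1, 26.4, 33.2, 39.4 and 59.2 CPM in the other unstimulated control libraries and 39.3, 48.4, 47.8, 42.3 and 23.5 CPM in control libraries with IL-13. NFKBIB on knockdown polysomes was at 21.9, 26.6, 51.8, 38.1 and 35.7 CPM unstimulated and at 39.1, 46.8, 35.9, 41.9 and 34.7 CPM with IL-13. It rose in polysome by 0.87 ± 0.30 to 1.01 ± 0.31 on the log2 scale. NFKBIA rose by 0.88 ± 0.27 to 1.23 ± 0.27, and SOD2 by 1.42 ± 0.54 to 1.82 ± 0.54. The highest of these, SOD2 in unstimulated control cells, was 0.22 (adjusted p = 0.697 in edgeR) when the polysome library of replicate 1 was left out and its input library kept, and 1.56 ± 0.20 when both were left out.

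REL (ENSG00000162924.16), a subunit best known from lymphoid cells, measured in input 7.21 CPM in replicate 1, 6.73, 5.10, 3.84 and 2.48 CPM in the other unstimulated control libraries and 7.23, 6.87, 4.45, 2.38 and 3.55 CPM in control libraries with IL-13. REL in the knockdown line was at 6.07, 3.10, 7.49, 5.00 and 3.21 CPM unstimulated and at 4.61, 3.85, 6.42, 5.16 and 2.43 CPM with IL-13. On polysomes REL measured 0.731 CPM in replicate 1, 1.36, 1.15, 0.992 and 0.223 CPM in the other unstimulated control libraries and 0.433, 0.440, 1.27, 2.35 and 1.41 CPM in control libraries with IL-13. REL on knockdown polysomes was at 0, 2.02, 1.48, 1.13 and 0 CPM unstimulated and at 1.69, 1.15, 2.41, 0.386 and 0.433 CPM with IL-13. The fractions did not overlap in any line and treatment, although every polysome value was under 3 CPM. With IL-13 they came close, at 2.35 against 2.38 CPM in control and 2.41 against 2.43 CPM in knockdown cells. How many of all genes had fractions apart in this way was not counted. The log2 fold changes ran from -2.47 ± 0.56 to -1.79 ± 0.54. NFKB1 fell by 1.79 ± 0.56 on the log2 scale in unstimulated control cells (adjusted p = 0.00982 in edgeR) and by 1.41 ± 0.56 in unstimulated knockdown cells. NFKB2 (ENSG00000077150.21), the precursor of the p52 subunit, in input measured 180 CPM in replicate 1, 37.2, 33.9, 36.2 and 43.3 CPM in the other unstimulated control libraries and 37.8, 27.7, 35.5, 40.6 and 36.9 CPM in control libraries with IL-13. NFKB2 in the knockdown line was at 37.7, 41.5, 35.2, 32.0 and 38.8 CPM unstimulated and at 43.3, 43.4, 25.8, 34.6 and 41.9 CPM with IL-13. On polysomes NFKB2 measured 112 CPM in replicate 1, 12.6, 10.4, 17.0 and 15.3 CPM in the other unstimulated control libraries and 11.9, 18.5, 10.2, 9.06 and 6.19 CPM in control libraries with IL-13. NFKB2 on knockdown polysomes was at 22.2, 13.1, 21.0, 14.3 and 3.91 CPM unstimulated and at 11.3, 14.6, 9.60, 17.2 and 11.3 CPM with IL-13. Apart from replicate 1 its polysome values lay below its input values. The log2 fold change was -1.67 ± 0.48 in IL-13 control cells (adjusted p = 0.0052 in edgeR) and -0.99 ± 0.47 in unstimulated control cells, where it was not called (adjusted p = 0.0941 in edgeR). Without replicate 1 it was -1.45 ± 0.29 there and was called.

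Setting replicate 1 aside added calls. With 38 libraries 11, 14, 15 and 12 of the 30 genes were called, in the order unstimulated control, unstimulated knockdown, IL-13 control and IL-13 knockdown, beside 37.8%, 39.3%, 40.2% and 40.1% of all genes. The share of members called was thus near that of all genes in unstimulated control and IL-13 knockdown cells and above it in the other settings. TNFAIP2 was then higher in polysome in all 4 settings (0.61 ± 0.21 to 0.77 ± 0.21) and TNIP1 in 2. The cytokine LIF was lower in 3 settings (-1.27 ± 0.28 in IL-13 knockdown cells, adjusted p = 0.000421 in edgeR). NFKBIZ was lower in 3, ICAM1 in 2, and IL6, IL11 and TNFAIP3 in 1 each. IL1B, CCL2 and TRAF1 were higher in 1 each. Secreted products were therefore found on both sides.

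**Figure D4:**
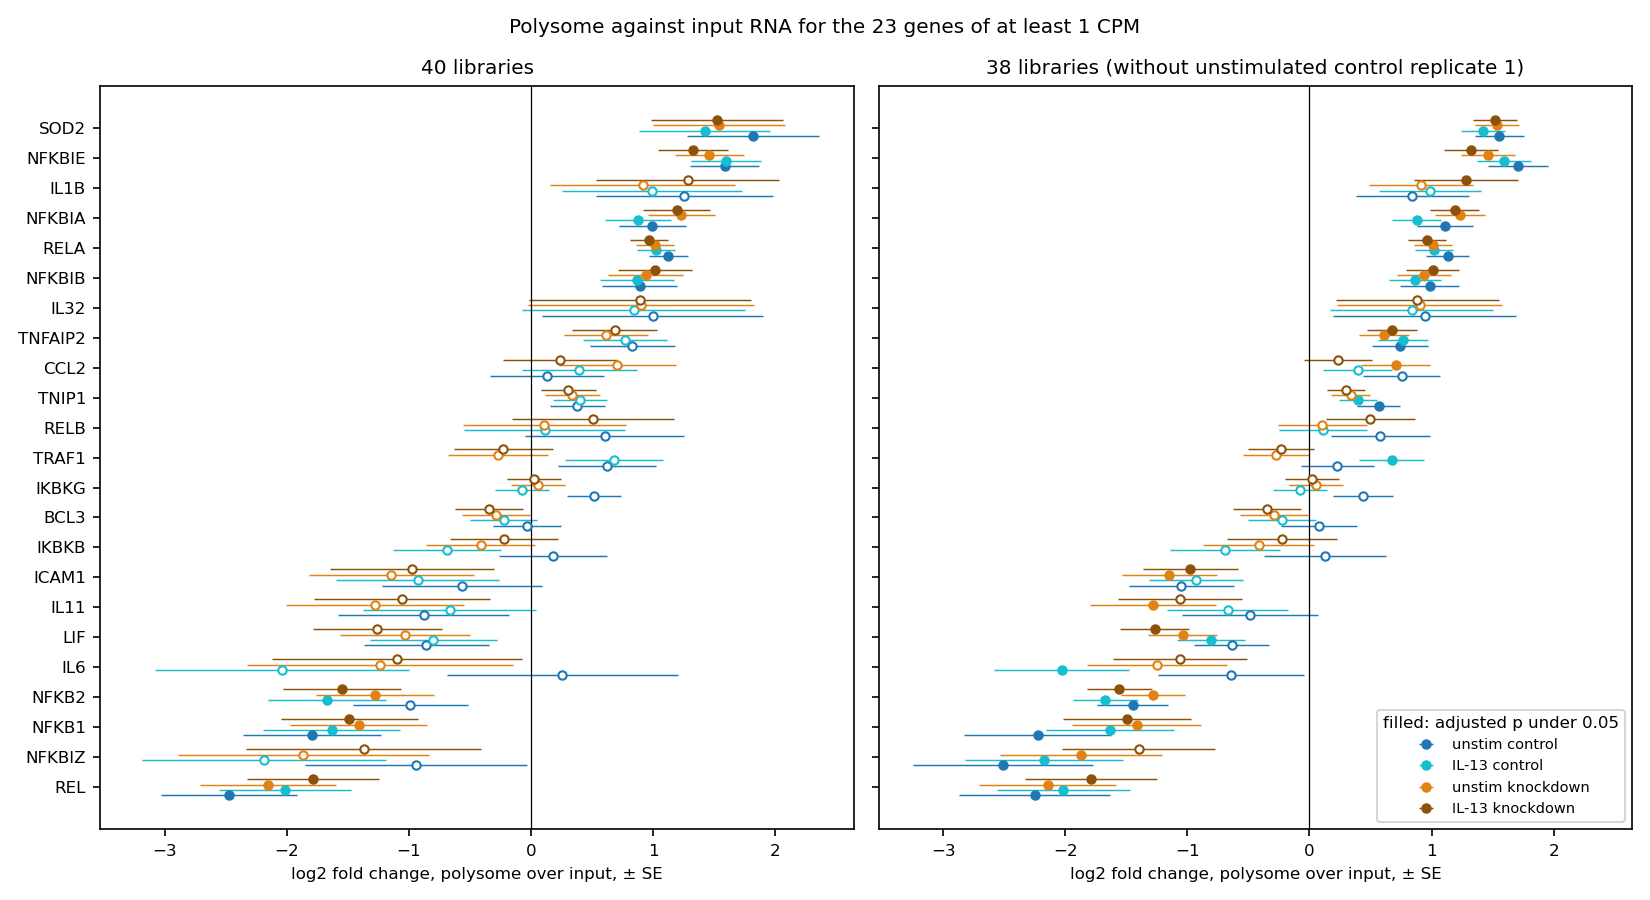
Log2 fold change ± SE of polysome over input for the 23 genes of at least 1 CPM in the 4 line and treatment settings, with 40 libraries (left) and 38 libraries (right), filled where the adjusted p was under 0.05. SOD2, NFKBIE, NFKBIA, RELA and NFKBIB are filled to the right of 0 in every setting, and NFKB1 and REL are filled to the left.

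Transcript length moved with this comparison. A relative length was taken from the ratio of counts to TPM, where 1 is the typical tested gene. REL was the longest of the members called with 40 libraries at 4.38, followed by NFKB1 at 1.49 and NFKB2 at 1.18. The genes called as higher in polysome with 40 libraries were shorter, from SOD2 at 0.38 to RELA at 0.95. Of those called as higher only with 38 libraries, TNFAIP2 (1.82), TRAF1 (1.68) and TNIP1 (1.05) were longer than RELA. IL1B (0.54) and CCL2 (0.24) were shorter. Across the 23 genes the Spearman correlation of length with the log2 fold change was -0.54, -0.55, -0.41 and -0.52 in the order above. Across 13078 genes it was -0.44, -0.37, -0.37 and -0.33. These describe genes that share the same libraries. Genes were also set against the median of all genes in the same 1 of 10 length classes, in unstimulated control cells. REL then stood at -1.29 and NFKB1 at -1.36, and RELA, NFKBIE and SOD2 at 0.99, 1.45 and 1.62. TNFAIP2, not called there with 40 libraries, stood at 1.45. The part of length in these differences was not tested further.

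**Figure D5:**
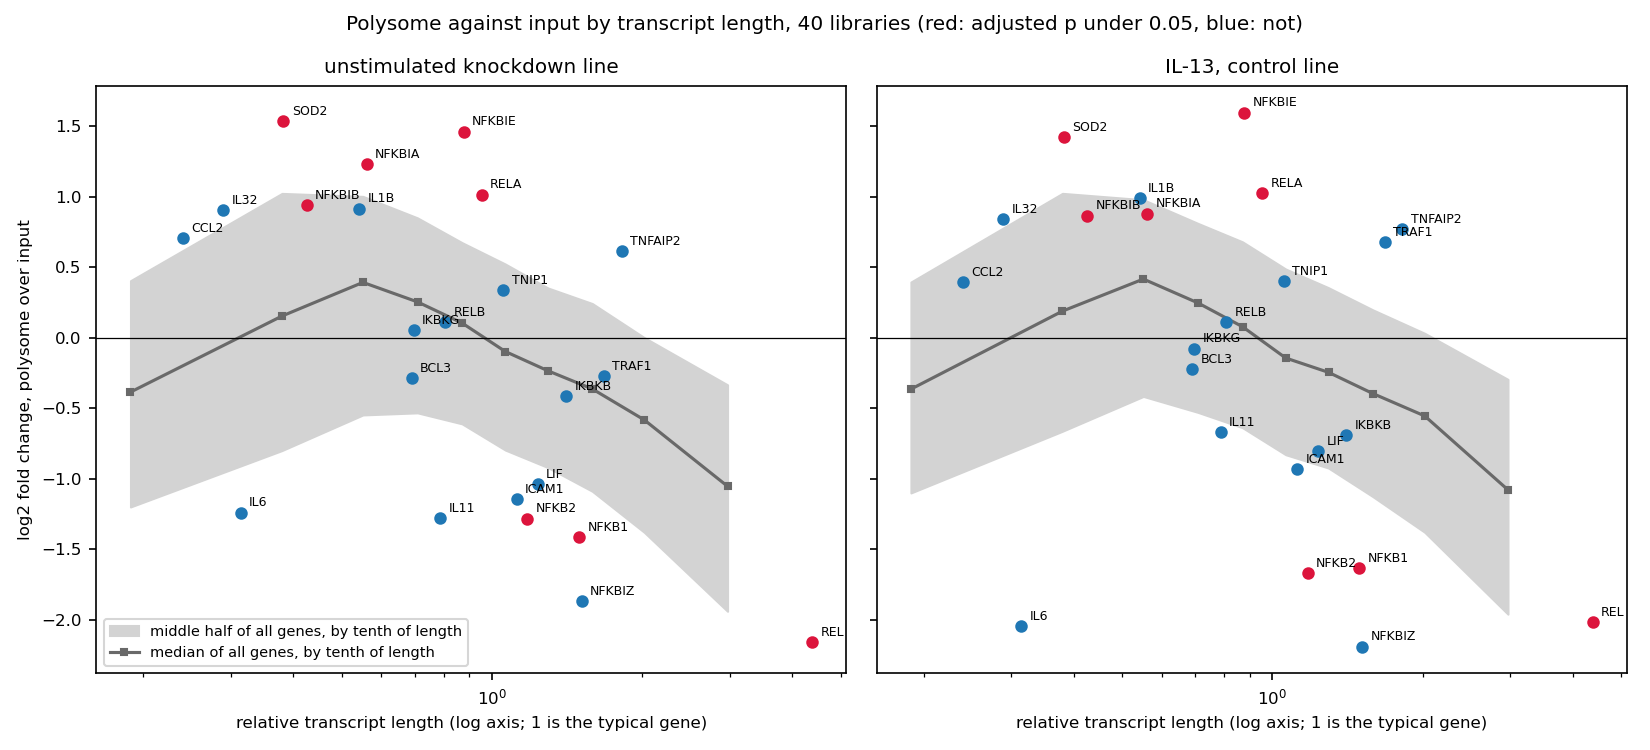
Log2 fold change of polysome over input against relative transcript length (log axis) for the 23 genes in unstimulated knockdown and IL-13 control cells (red where called), with the median and the interquartile range of all genes by length class in grey. REL is the point furthest right (log2 fold changes of -2.15 and -2.02). SOD2, NFKBIE, RELA and TNFAIP2 lie above the grey band, TNFAIP2 without a call.

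The wider pathway gave few calls. None of 37 tested receptors and signalling proteins upstream of the kinase, 24 further NF-kB targets, 12 factors that act on AU-rich cytokine mRNAs and 18 immediate early and stress genes was called in an IL-13, knockdown, difference or shift comparison with 40 libraries. For IL-13 in control input, 1, 8, 1 and 14 genes of the 4 lists reached an unadjusted p under 0.05 in edgeR. This was so for 2.04% of all genes. All those of the lists were lower with IL-13. The unstimulated group of that comparison holds replicate 1, in which all 18 immediate early and stress genes were highest in input. The direction of these counts can therefore not be told apart from that library. With 38 libraries F3, the tissue factor gene, was called as higher in the knockdown line with IL-13 in polysome (1.25 ± 0.23, adjusted p = 0.0118 in edgeR), where the control libraries held 40.7, 16.8, 23.3, 36.2 and 17.3 CPM and the knockdown libraries 59.1, 94.7, 41.9, 44.8 and 79.7 CPM. IRAK4, a kinase of the IL-1 receptor, was called in polysome for IL-13 in control cells and for the knockdown in unstimulated cells. Both comparisons are against a group in which the remaining 4 libraries were listed at 0 and replicate 1 held 4.59 CPM, and the libraries with counts in the other groups held 0.571 to 5.49 CPM.

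In polysome against input, 8 upstream genes were called as higher and 7 as lower of 37 in unstimulated control cells, so that the share called was near the 40.2% of all genes. The smallest p-values belonged to TRAF2 (1.16) and MYD88 (1.11), adaptors of the tumour necrosis factor and IL-1 receptors, and on the lower side to IRAK1 (-1.81) and TRAF3 (-0.99). Of all genes 17.4% were higher and 22.8% lower in this setting. The fit holds the 40 libraries, and thus replicate 1, where all 18 immediate early and stress genes were highest in both fractions. Of the 24 further targets 3 were higher, with GADD45B (1.44) and RCAN1 (0.83) first, and 1 was lower, C3 (-3.50). Of the 12 factors that act on AU-rich cytokine mRNAs, 3 were higher, with ELAVL1 at 1.35 and HNRNPD at 1.04. Another 3 were lower, with KHSRP at -1.53 and AGO2 at -0.92. Of the 18 immediate early genes 1 was called, ATF3, higher in polysome (1.17).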

How the data were processed

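BEAS-2B input and polysome RNA was measured in 40 libraries (8 groups of 5). The authors deposited 1 table of 62263 genes with estimated counts and TPM per library. Per the submitters' processing notes, Trimmomatic, Salmon, MultiQC and DESeq2 were used; versions, genome build and annotation are not given in the sources used here. The deposited TPM columns summed to 82.3% to 85.9% of the full scale, so some transcripts are not in the table, and TPM was used only to compare genes by length. Symbols were joined by unversioned Ensembl ID (62246 of 62263 matched, 17 did not).

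Estimated counts were rounded. Genes were kept with edgeR's filterByExpr (16735), scaled by TMM, fitted over all 8 groups (32 residual degrees of freedom) and tested with edgeR's quasi-likelihood test, with Benjamini-Hochberg adjustment over all genes; a call is an adjusted p under 0.05, and SE is the log2 fold change over the root of F. The biological coefficient of variation was 43.0%. A second fit left out unstimulated control replicate 1 in both fractions (16995 genes, 30 residual degrees of freedom); it was chosen with earlier results of these data known. Versions were R 4.3.3, edgeR 4.0.16, DESeq2 1.42.0 and limma 3.58.1. There were 18 comparisons, and the fit was tested on simulated counts. No pair of libraries of a group was a copy: over 80 pairs the lowest chi-square per degree of freedom was 15.1. Depth differed by library, and 3 counts were taken as the floor of detection.

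The members and lists were chosen with earlier results of these data known. Every library is given for 21 genes named by rule, apart from CXCL3, which is given for replicate 1 and by its highest value elsewhere. The rule covered the main chemokines, cytokines, feedback inhibitors, RELA and NFKB1. It also covered members called in an IL-13 or knockdown comparison, of which there were none. TNFAIP2 and the other genes with full values were added after their values were seen. In other lists the smallest p-values in each direction are named. Alternatives covered scaling, filter, DESeq2, the groups in the fit, replicate blocks and leaving out libraries. DESeq2 gave no adjusted p for 8 of the 30 members. Promoter sequences came from RefSeq; the kappa-B consensus replaced another 10-letter form after that form's matches had been seen.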

Additional observations from a re-analysis of the deposited data

Results flagged for a closer look

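Libraries far from the others of their group were sought for 26 genes by Dixon's rule. It was applied to CPM in 177 groups of 5 libraries whose highest count was at least 10. A high outlier also needed at least 10 counts itself. Chance flags about 1 in 20 such groups if values are normally distributed, which was not checked. There were 45, of which 41 were in unstimulated control replicate 1. Since the genes were chosen with the pattern of that replicate known, the chance rate is no test of the 41, which are given as a description.

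In input these were the chemokines CXCL8 (132 CPM), CXCL1 (105 CPM), CXCL2 (29.9 CPM), CXCL3 (8.50 CPM), CCL2 (61.1 CPM) and CCL20 (2.71 CPM). The cytokines were IL6 (59.7 CPM), IL11 (71.3 CPM), LIF (93.5 CPM), IL1A (18.6 CPM), IL1B (29.9 CPM) and IL32 (182 CPM). The regulators were NFKBIA (75.4 CPM), NFKBIB (61.7 CPM), NFKBIE (45.6 CPM), NFKBIZ (52.7 CPM), TNFAIP3 (69.3 CPM), BIRC3 (7.14 CPM) and NFKB2 (180 CPM), and the other targets ICAM1 (199 CPM), SOD2 (164 CPM) and TNFAIP2 (354 CPM).

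In polysome they were CXCL8 (78.9 CPM), CXCL1 (76.4 CPM), CXCL2 (7.93 CPM), CXCL3 (4.18 CPM), CCL20 (4.07 CPM), IL6 (75.7 CPM), IL11 (35.3 CPM), LIF (47.9 CPM), IL1A (33.4 CPM), IL1B (77.1 CPM) and IL32 (367 CPM). Regulators were NFKBIZ (32.3 CPM), TNFAIP3 (51.8 CPM), BIRC3 (1.88 CPM), NFKB1 (25.9 CPM) and NFKB2 (112 CPM), with the targets ICAM1 (151 CPM), SOD2 (623 CPM) and TNFAIP2 (672 CPM).

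The remaining 4 were in other libraries. IL6 was at 1.84 CPM in polysome of IL-13 control replicate 1, against 0.617 to 0.768 CPM. ICAM1 was at 30.2 CPM in input of IL-13 knockdown replicate 5, against 12.7 to 17.7 CPM. BIRC3 was at 1.39 CPM in polysome of IL-13 knockdown replicate 3, against 0 to 0.0791 CPM. NFKBIE was at 55.1 CPM in polysome of unstimulated knockdown replicate 4, against 40.6 to 43.7 CPM.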

How the results depend on the processing

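The counts of called members and the effects of SOD2, IL6 and TNFAIP2 turned on unstimulated control replicate 1. Without it in both fractions (38 libraries) or in fits of 1 fraction (19 libraries), SOD2 with IL-13 in the control line was 0.19 and 0.18 in input and 0.054 and 0.055 in polysome, and its knockdown effect in unstimulated cells was 0.026 and 0.023 in input and 0.0063 and 0.0098 in polysome, all opposite in sign to the 40-library values. IL6 in input was 1.12 and 1.12 for IL-13 and 0.22 and 0.22 for the knockdown. TNFAIP2 gave 1 call for the knockdown in the 19 input libraries, unstimulated and with IL-13, and 1 with IL-13 when only the groups compared were fitted. With no filter beyond 1 count, IL-13 in the control line gave 1 call in input (CXCL8) and 3 in polysome (TNFAIP3, CXCL1, CXCL8). The cause was not tested.

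For polysome against input, in the order unstimulated control, unstimulated knockdown, IL-13 control and IL-13 knockdown, 38 libraries gave 11, 14, 15 and 12 calls. A culture block that joins the input and polysome libraries of a number gave 14, 14, 15 and 12 calls, fits of only the groups compared gave 5, 14, 13 and 13 calls, and the replicate block gave 9, 8, 9 and 9. The replicate block gave 0 calls in the IL-13 and knockdown comparisons. Replicate numbers share only a number: deviations of same-numbered libraries correlated over 0.1 in 7 of 20 input and polysome pairs and in 39 of 120 others, and 11 of 40 libraries correlated best with their own number. Only-groups fits lost the calls of NFKBIB and SOD2 in unstimulated control and NFKB1 in IL-13 control cells, and scaling by size factors lost NFKB1 in unstimulated knockdown cells. With the 37 libraries of at least 5000000 counts, NFKB1 and NFKB2 lost theirs in unstimulated knockdown cells.

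Leaving out 1 library at a time, calls ranged from 0 to 2 for IL-13 in control input, with CXCL1 and CXCL8 called without the polysome library of replicate 1, and from 0 to 4 in control polysome, with TNFAIP3, IL6, CXCL1 and CXCL8 called without its input library. For the knockdown in unstimulated input they ranged from 0 to 1 (CXCL8), and for polysome against input from 6 to 20 (20 without the input library of replicate 1), 5 to 9 (5 without polysome unstimulated knockdown replicate 4), 6 to 11 and 7 to 9. SOD2 ranged from -1.37 to 0.19 (input) and -1.78 to 0.055 (polysome) for IL-13 in the control line, and from -1.53 to 0.026 and -1.83 to 0.0066 for the knockdown. IL6 in input ranged from -2.12 to 1.12 and from -3.02 to 0.22. TNFAIP2 in the knockdown ranged from 0.10 to 0.88 in unstimulated input and from -0.14 to 0.75 in polysome. Genes under about 1 CPM, CXCL3, CXCL5, CCL20, CSF2 and TNFRSF9 among them, are limited by depth in the 3 polysome libraries under 5000000 counts.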
